A study of Mus musculus with 6 samples.

Results

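Integrins are the adhesion receptors through which cells hold on to matrix proteins and to other cells. Each is a pair of an alpha and a beta chain, and the pair decides the ligand: alpha 4 with beta 1 binds VCAM-1 and fibronectin on bone marrow stroma, alpha 6 binds laminins, and alpha L with beta 2 (LFA-1) binds the ICAM proteins of other cells. Early B cell precursors are known to be held in their marrow niche by alpha 4 beta 1, whereas alpha M with beta 2 (CD11b/CD18) is a hallmark of myeloid cells. The genes described here are 10 integrin chains, Itga4, Itga5, Itga6, Itgal, Itgam, Itgb1, Itgb2, Itgb3, Itgb4 and Itgb7, taken by symbol from a table of 23793 rows. Each symbol matched 1 row.

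The libraries came from i660BM, a mouse pro-B cell line on the C57BL/6 background that grows in suspension with interleukin 7. All 6 libraries were made from cells carrying an inducible PU.1 system. PU.1 (gene Spi1) is an ETS family transcription factor of myeloid and B cells. The 3 induced samples had received 70 ng/ml doxycycline for 48 h and the 3 non-induced samples had not. No group received the drug without the inducible factor, so drug and factor cannot be told apart, and whether the line is 1 clone or the samples were separate cultures is not stated in the labels. The authors' p-values may therefore measure technical spread.

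The authors' deposited table gives 1 FPKM value per gene and group, which is the fragment count scaled by transcript length and by library depth. Values of single libraries are not part of it, so no standard deviation is given and no overlap between groups can be judged. A gene is called here, and said to rise or fall, where the authors tested it with Cuffdiff and their q-value was under 0.05. The steps between the lowest FPKM values correspond to about 120000000 fragments per group. The authors' deposited table has Spi1 at 36.0 FPKM without and 246 FPKM with induction, in the direction of the labels. Of 15 pro-B cell markers 11 were at 1 FPKM or more in both groups, among them Cd79a, Ebf1 and Pax5. Rag1 and Rag2 were tested and stood at 0.00348 and 0.00853 FPKM without induction. With induction they stood at 0.434 FPKM (Rag1, called higher) and 1.60 FPKM (Rag2, not called). Kit was listed at 0 in both groups, and Ptprc, the pan-leukocyte CD45 gene, at 0.00608 and 0.0649 FPKM, so a value near 0 in an untested row can be a failed estimate and does not show absence.

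Induced cells had more Itgb4 and Itga4 transcript and less Itga6 and Itgb1 transcript than non-induced cells, while Itgal, Itgb2 and Itgb7 were not called. Of the 10 chains 7 had been tested, and of these 2 were called higher and 2 lower in the authors' deposited table. Over all tested genes 35.1% were called, 19.0% higher and 16.1% lower. The median log2 change of the 7 tested chains was 0.01, beside -0.01 for all 10657 tested genes. The other 3 chains, Itga5, Itgam and Itgb3, lay below 0.3 FPKM in both groups and had not been tested. Both chains that rose stand in rows whose locus is shared with a neighbouring gene, so a count without such rows holds 0 higher and 2 lower chains (over all tested rows with a locus of their own, 38.1% were called).

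**Figure D1:**
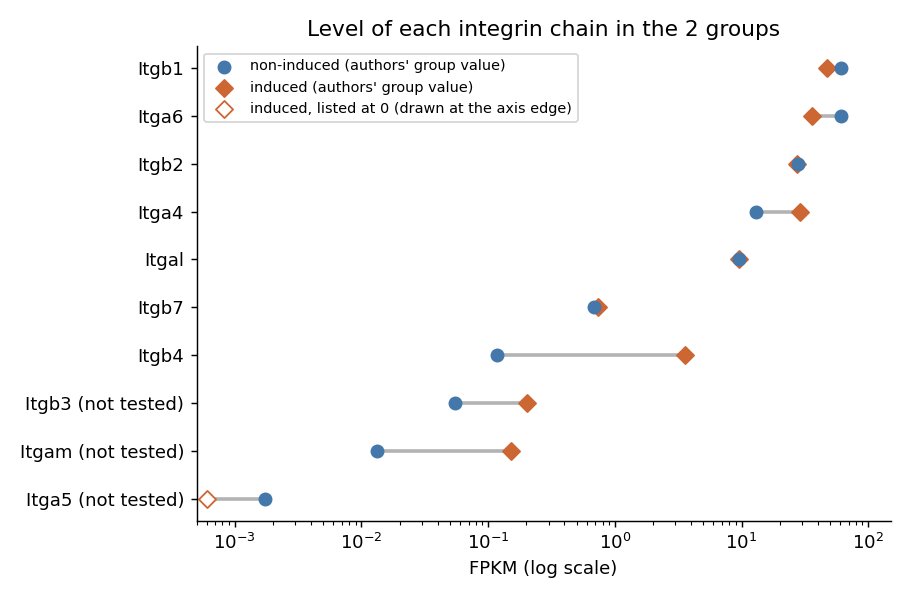
FPKM of the 10 integrin chains on a log axis, with 1 authors' value for non-induced cells (circles) and 1 for induced cells (diamonds). Itgb1 and Itga6 are highest in both groups, Itgb4 moves from 0.117 to 3.60 FPKM, and Itga5 is listed at 0 in induced cells.

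Without induction the beta 1 and alpha 6 transcripts stood at nearly the same level. In non-induced cells the order by FPKM, a level per transcript length, was in the authors' deposited table Itgb1 (61.3), Itga6 (61.1), Itgb2 (27.8), Itga4 (13.1), Itgal (9.52) and Itgb7 (0.681). Below these came Itgb4 (0.117), Itgb3 (0.0551), Itgam (0.0133) and Itga5 (0.00174). With induction the order in the authors' deposited table was Itgb1 (47.0), Itga6 (36.2), Itga4 (29.0), Itgb2 (27.3), Itgal (9.57), Itgb4 (3.60), Itgb7 (0.735), Itgb3 (0.204), Itgam (0.151) and Itga5 (listed at 0). Itga4 thus passed Itgb2, and Itgb4 passed Itgb7. Since no spread between libraries is known, close neighbours such as Itgb1 and Itga6 in non-induced cells, or Itga4 and Itgb2 in induced cells, cannot be ranked with confidence.

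Itga4 encodes the alpha 4 chain of the receptors for VCAM-1, fibronectin and MAdCAM-1. It rose from 13.1 to 29.0 FPKM per the authors' deposited table, by 1.15 on the log2 scale (implied standard error 0.15, Cuffdiff q = 0.000287). The implied standard error is the log2 change divided by the deposited test statistic, a relation that the table does not state. The change is 2.22-fold (95% interval from the implied error 1.81 to 2.72), and 97.5% of tested genes had a lower log2 change. Itga4 spans 79255426 to 79333123 of chromosome 2, plus strand (mm10, protein-coding, 28 exons in its longest transcript). Its last 2581 bases overlap Cerkl, a ceramide kinase-like gene on the opposite strand that shares the locus in the table. The authors' deposited table has Cerkl at 1.06 FPKM without and 1.27 FPKM with induction, with no call (q = 0.866). The implied standard error of Cerkl was 1.57, so the missing call says little about its change.

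Itgb4 encodes the beta 4 chain, which pairs with alpha 6, has an unusually long cytoplasmic tail and is best known from the hemidesmosomes of epithelia. It rose from 0.117 to 3.60 FPKM per the authors' deposited table, a log2 change of 4.94 (q = 0.000287). This was the largest change among the chains with a finite ratio, and it ranked 14 among 2001 called rises with a finite fold change. Its implied standard error of 1.13 was far above the median of 0.151 over tested rows, and the interval that it gives runs from 6.64-fold to 142-fold. With its longest annotated transcript, the values correspond to about 85 fragments in the non-induced and 2760 in the induced libraries together. With 0.117 FPKM in non-induced cells it was near the untested chains, and it could be tested through its induced value.

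Itgb4 spans 115974709 to 116008412 of chromosome 11, plus strand (mm10, protein-coding, 40 exons in its longest transcript). The galactokinase gene Galk1 ends 44 bases beyond it on the minus strand, tail to tail, and shares its locus in the table. Galk1 fell from 63.9 to 52.0 FPKM per the authors' deposited table (q = 0.00713), and was not called with normal p-values (adjusted p = 0.197). A non-coding RNA, B230344G16Rik, is annotated within Itgb4 on the minus strand and has no separate value here. The 14 stromal and epithelial markers examined, Epcam, Krt5 and Krt14 among them, summed to 0.0094 FPKM without and 0.0054 FPKM with induction. Of these markers 0 had been tested, so the low sums do not show absence.

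Itga6 and Itgb1, the chains with the highest levels, both fell. Itga6, the laminin-binding alpha 6 chain and the partner of beta 4, went from 61.1 to 36.2 FPKM per the authors' deposited table, a log2 change of -0.76 (implied standard error 0.15, Cuffdiff q = 0.000287). That is 1.69-fold lower in induced cells, and 3.07% of tested genes had a lower log2 change. Itgb1, the common partner of alpha 4, alpha 5 and alpha 6, went from 61.3 to 47.0 FPKM per the authors' deposited table, a log2 change of -0.38 (implied standard error 0.14, q = 0.000287). At 1.30-fold lower, it had the smallest of the 4 called changes. The deposited p-values sit at their lowest possible step of 5e-05 for each of these 4 chains, a value shared by 1855 rows, so the q-values do not rank them. When p-values were taken from the test statistic as a normal deviate, Itgb1 had an adjusted p of 0.0482 and was the called chain nearest the threshold. Over all tested genes the share called in this way was 15.2%.

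Itga6 spans 71745616 to 71858416 of chromosome 2 and Itgb1 spans 128685654 to 128733200 of chromosome 8 (mm10, both protein-coding and on the plus strand). In the table the Itga6 locus begins inside that span, downstream of the annotated gene start, and neither row shares its locus. The difference between the rise of Itga4 and the falls of Itga6 and Itgb1 was not tested by itself. In bulk RNA of this kind, fewer cells with a transcript and less transcript per cell cannot be told apart.

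**Figure D2:**
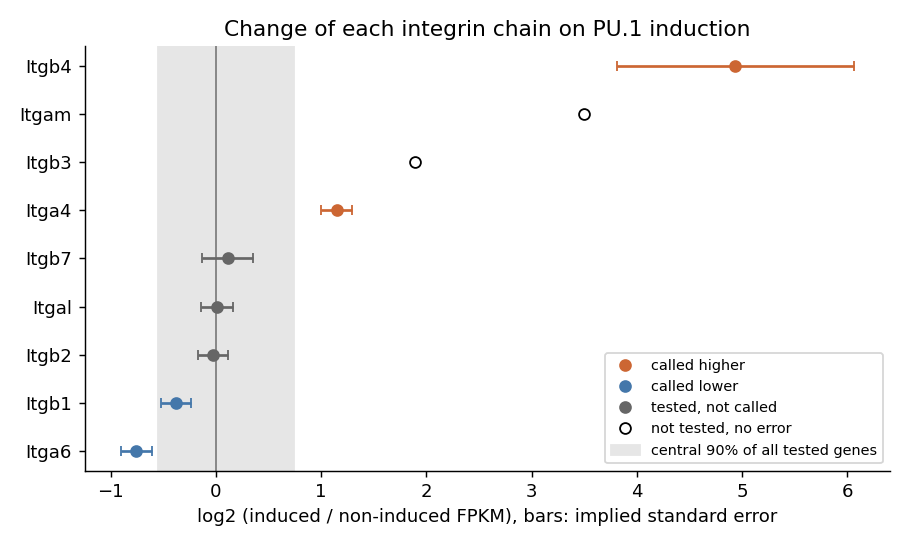
Log2 ratio of induced to non-induced FPKM for the 9 chains with a finite ratio, with the implied standard error as bars where the authors made a test. Itga4 and Itgb4 lie above, and Itga6 below, the grey band that holds the central 90% of all tested genes, from -0.55 to 0.75. Itgb1 lies inside it. The untested Itgam (3.50) and Itgb3 (1.89), open points without an error, also lie above it.

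The leukocyte integrin chains Itgb2 and Itgal, and with them Itgb7, were tested and not called. Itgb2 (CD18) was listed at 27.8 and 27.3 FPKM per the authors' deposited table (log2 -0.03, implied 95% interval -0.31 to 0.25, q = 0.849). Itgal, the alpha L chain of LFA-1, stood at 9.52 and 9.57 FPKM per the authors' deposited table (log2 0.01, implied 95% interval -0.29 to 0.31, q = 0.965). As folds, these intervals run from 0.807 to 1.19 for Itgb2 and from 0.816 to 1.24 for Itgal. Itgb7, which pairs with alpha 4 in the gut-homing receptor and with alpha E, was at 0.681 and 0.735 FPKM per the authors' deposited table (log2 0.11, implied 95% interval -0.36 to 0.58, q = 0.639). The interval of Itgb7, the chain with the lowest level of the 3, is the widest.

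Itgam, the alpha M chain of CD11b/CD18, is a standard myeloid marker. Its values in the authors' deposited table were 0.0133 FPKM without and 0.151 FPKM with induction, about 7 and 87 fragments, and it was not tested. The ratio of 11.3 carries no error and falls to a log2 difference of 0.18 once 1 FPKM is added to both values. Even in induced cells, Itgam stood at 1.57% of the FPKM of Itgal, another alpha chain that pairs with beta 2. Itgam lies on chromosome 7 at 128062640 to 128118491 on the plus strand, and a predicted protein-coding gene, Gm49368, overlaps nearly its whole length on the same strand. The further alpha chains of this class, Itgax (CD11c) and Itgad, stood at 0 without induction and at 0.0199 and 0.0102 FPKM with it.

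The 3 tested markers of macrophages, Lyz2, Mpeg1 and Cd68, were called higher, as were Itgb4 and Itga4, and 11 more listed markers of macrophages or granulocytes were not tested. The whole list summed to 2.30 FPKM without and 23.2 FPKM with induction. At 0 in both groups stood Csf3r, Ctsg, Elane, Ltf, S100a8 and S100a9. The macrophage genes Csf1r and Emr1, also untested, were listed at 0 without and at 0.192 and 0.0512 FPKM with induction. Untested Mpo went the other way, from 0.00358 FPKM to 0. Pro-B cell markers rose as well: 9 of 13 tested were called higher and 0 lower by Cuffdiff (0 lower also at an unadjusted p under 0.05 and with normal p-values), and their list summed to 3597 FPKM without and 5765 FPKM with induction. Of all tested genes, Cuffdiff called 19.0% higher and 16.1% lower. The part of either marker list in the changes of the integrin chains was not tested.

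Itgb3, the beta 3 chain of the vitronectin and platelet fibrinogen receptors, was listed at 0.0551 and 0.204 FPKM per the authors' deposited table and was not tested. Its partners were at 7.28 and 6.97 FPKM for Itgav, which was tested and not called (q = 0.629), and at 0.156 and 0.219 FPKM for Itga2b, which was not tested. The 9 megakaryocyte and platelet markers in the table summed to 0.492 and 0.717 FPKM, with Pf4 and Ppbp listed at 0 in both groups. Itga5, the fibronectin-binding alpha 5 chain, had 0.00174 FPKM in non-induced cells, about 1 fragment, and was listed at 0 in induced cells. No ratio is given for it, and its row shares its locus with another row.

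**Figure D3:**
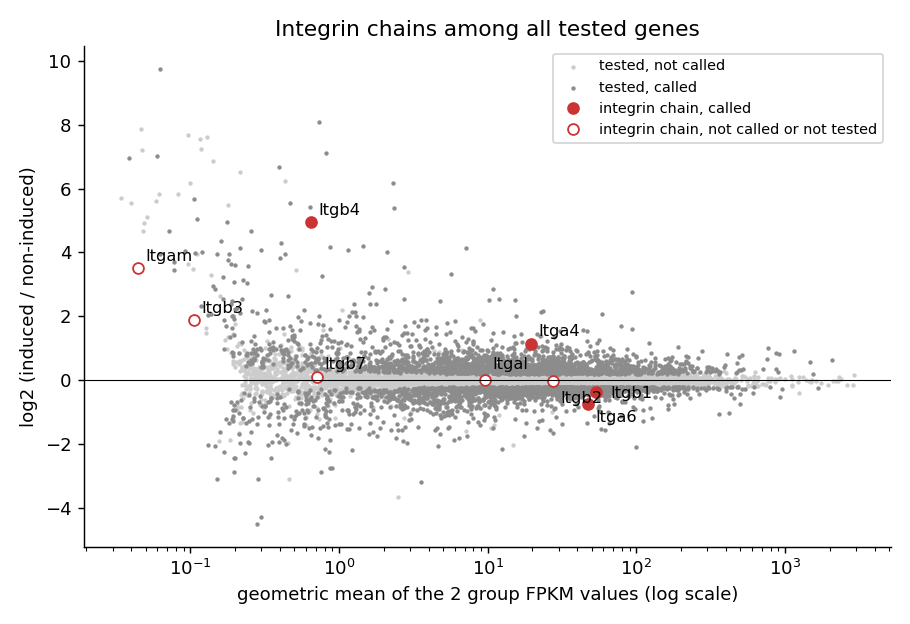
Log2 ratio of induced to non-induced FPKM against the geometric mean of both values (log axis) for all tested genes with values above 0 in both groups (grey), with the 9 integrin chains that have a finite ratio in red (filled where called). Itgb4 stands at 4.94 and Itga4 at 1.15, and the untested Itgam and Itgb3 lie at the low end of the level axis.

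The promoter letters of these chains were set beside their changes because the ETS factor PU.1 is known to bind purine-rich sites with a GGAA core, among them the PU box GAGGAA. RefSeq windows (build GRCm38.p6) from 250 bases before to 50 bases after the gene start were at hand for 5 of the 10 chains, Itga4, Itga5, Itgam, Itgb1 and Itgb7. The windows below belong to the chain that rose 2.22-fold, to the beta chain that fell, and to the myeloid alpha chain. All 3 lie on the plus strand, at chr2:79255176-79255475 (Itga4), chr8:128685404-128685703 (Itgb1) and chr7:128062390-128062689 (Itgam). Capitals mark GAGGAA, or TTCCTC where it stands on the other strand.
Itga4: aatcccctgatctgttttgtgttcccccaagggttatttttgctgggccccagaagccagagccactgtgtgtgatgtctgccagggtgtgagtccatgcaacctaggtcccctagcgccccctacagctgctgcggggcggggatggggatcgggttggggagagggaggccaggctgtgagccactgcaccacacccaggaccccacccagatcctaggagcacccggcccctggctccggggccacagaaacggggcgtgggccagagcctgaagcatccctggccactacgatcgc
Itgb1: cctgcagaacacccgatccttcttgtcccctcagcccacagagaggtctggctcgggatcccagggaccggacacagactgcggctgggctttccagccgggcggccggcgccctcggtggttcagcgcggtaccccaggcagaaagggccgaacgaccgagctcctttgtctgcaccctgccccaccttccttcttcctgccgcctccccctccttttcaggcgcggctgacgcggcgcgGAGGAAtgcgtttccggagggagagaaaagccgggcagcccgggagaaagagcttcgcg
Itgam: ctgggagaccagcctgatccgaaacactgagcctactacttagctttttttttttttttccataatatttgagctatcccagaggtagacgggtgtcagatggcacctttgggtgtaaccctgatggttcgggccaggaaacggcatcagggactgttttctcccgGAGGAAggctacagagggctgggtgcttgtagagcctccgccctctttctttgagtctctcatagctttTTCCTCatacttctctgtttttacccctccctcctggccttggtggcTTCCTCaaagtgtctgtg

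The Itgam window held 3 matches to GAGGAA, at -84 to -79, at -15 to -10 and at 33 to 38 from the start site, the last 2 of them on the other strand. Itgb1 held 1 match at -9 to -4, and Itga4 held 0. Itga5 and Itgb7 held 1 match each. Of 32851 RefSeq windows of this length, 28.3% held at least 1 match on either strand and 4.82% held more than 1. The shorter core GGAA, which every GAGGAA contains, was found in 96.0% of windows and in all 5 of these, 1 time in Itga4 and 5 times in both Itgb1 and Itgam. A match is a match of letters and no measure of binding.

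Alpha 6 made up less, and alpha 4 more, of the alpha chain transcript in induced cells. Over the 18 alpha chains in the table, Itga6 made up 66.3% of the summed FPKM without and 43.5% with induction in the authors' deposited table. The share of Itga4 went from 14.2% to 34.8% of that sum, and the shares of Itgal (10.3% and 11.5%) and Itgav (7.90% and 8.37%) stayed near each other. The alpha sum itself was 92.2 and 83.2 FPKM. These shares rest on single group values and carry no error.

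Among the 9 beta chains Itgb1 and Itgb2 made up nearly all of the sum in both groups. Of the beta FPKM, Itgb1 held 68.1% without and 59.6% with induction, and Itgb2 held 30.9% and 34.6%. Itgb4 went from 0.130% to 4.56% of the beta sum in the authors' deposited table, and Itgb7 stood at 0.756% and 0.930%. The beta sum went from 90.03 to 78.96 FPKM.

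**Figure D4:**
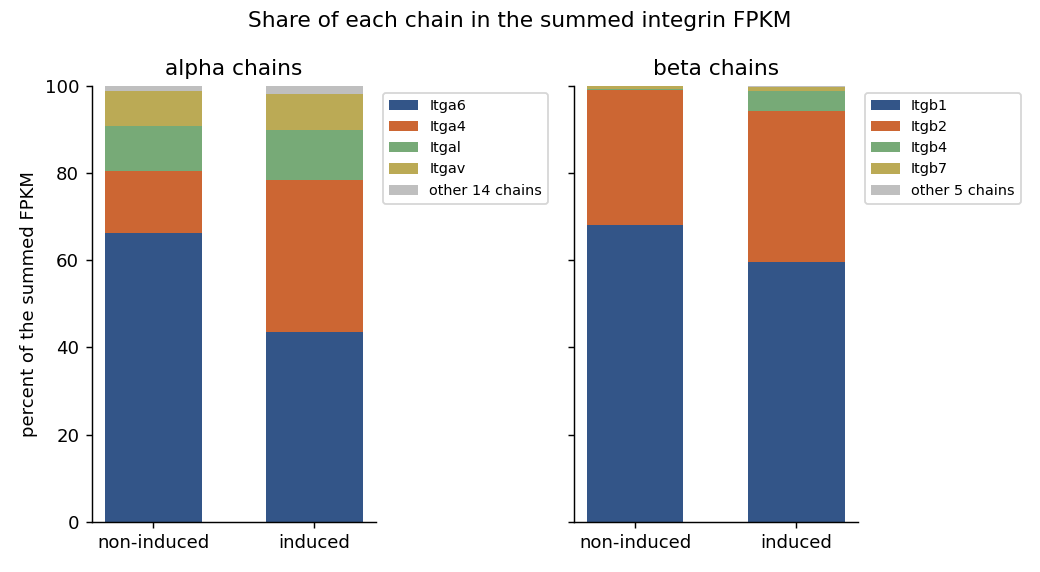
Stacked bars of each chain's percent of the summed FPKM, for the 18 alpha chains (left) and the 9 beta chains (right), in non-induced and induced cells. The Itga6 block shrinks from 66.3% to 43.5% as the Itga4 block grows from 14.2% to 34.8%, and Itgb4 becomes visible at 4.56% of the beta sum.

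Ratios between partner chains show the same values by receptor. Itga4 stood at 0.213 of the Itgb1 level without and 0.616 with induction. Against Itgb7 its ratio went from 19.2 to 39.5, so Itgb7 was listed far below Itga4 in both groups. That need not show scarcity, since Ppia, a gene that most cells express, was tested and listed at 0.744 and 0.734 FPKM. Itga6 went from 0.996 to 0.769 of the Itgb1 level. Itgb4 went from 0.00192 to 0.0995 of the Itga6 level, and from 0.00191 to 0.0765 of the Itgb1 level. For LFA-1 the ratio of Itgal to Itgb2 was 0.342 and 0.350. Transcript ratios do not measure how much of each pair reaches the surface.

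The other 17 integrin genes gave no called change. Only Itgav, Itga9 and Itga10 of them had been tested, and Cuffdiff called 0 higher and 0 lower, also 0 at an unadjusted p under 0.05 and 0 with normal p-values. Itga9 was listed at 0.378 and 0.380 FPKM and Itga10 at 0.554 and 0.582 FPKM per the authors' deposited table. Itgae, the alpha E partner of beta 7, was untested at 0.0806 and 0.118 FPKM, and it shares its locus with Gsg2 (17.9 and 19.5 FPKM). Each of the 14 untested genes was below 0.3 FPKM in both groups, and 6 of them were listed at 0 in both, Itga1, Itga3, Itga8, Itgb2l, Itgb6 and Itgb8.

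Among 29 ligands and counter-receptors 5 had been tested, and 3 of these rose and 0 fell (0 fell also at an unadjusted p under 0.05 and with normal p-values from the Cuffdiff statistic). With normal p-values 2 of the rises were called, and Lamc1 was not. Over all tested genes 19.0% were called higher. The median log2 change of the 5 was 0.36, beside -0.01 for all tested genes. Icam1, the ligand of LFA-1 and of alpha M beta 2, rose from 17.5 to 44.6 FPKM per the authors' deposited table (log2 1.35, q = 0.000287). No call was made for Icam2, another LFA-1 ligand, at 38.1 and 35.3 FPKM (q = 0.355). Spp1, which encodes the matrix protein osteopontin, rose from 0.524 to 8.41 FPKM, and Lamc1, the laminin gamma 1 chain, from 25.5 to 32.8 FPKM, per the authors' deposited table. Vcam1 and Fn1, the main ligands of alpha 4 beta 1, were listed at 0 in both groups, and Madcam1 at 0.00653 FPKM in non-induced cells and at 0 in induced cells.

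The machinery that switches integrins on from inside the cell was expressed in both groups, and the share of it that was called was near that of all tested genes. Of 28 listed genes 22 had been tested, all of them at 1 FPKM or more, with 6 higher, 2 lower and a median log2 change of 0.09, where 35.1% of all tested genes were called. The core activators Tln1 (talin, 44.8 and 48.9 FPKM, q = 0.233) and Fermt3 (kindlin-3, 99.4 and 88.3 FPKM, q = 0.0965) were not called in the authors' deposited table. The small GTPase gene Rap1b rose from 96.1 to 111 FPKM (log2 0.20, q = 0.0409). Skap2, an adaptor in integrin activation of myeloid cells, had the largest rise, from 36.4 to 87.5 FPKM (log2 1.26), and the kinase gene Stk4 followed, from 125 to 197 FPKM (log2 0.66), in the authors' deposited table. Rasa3, a RAP1 GTPase-activating protein (log2 0.30), and the exchange factor gene Cyth1 (0.29) rose by less. Rapgef3, a cyclic AMP-dependent exchange factor for RAP1, fell from 5.22 to 1.41 FPKM (log2 -1.89), and Sipa1, a RAP1 GTPase-activating protein, fell from 80.4 to 67.1 FPKM (log2 -0.26), in the authors' deposited table. When normal p-values were used, 2 of the 6 rises and 1 of the 2 falls were called, beside 15.2% of all tested genes.

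Genes of signalling proteins recruited to integrin tails were called in both directions, as were genes at large. Of 31 listed genes 20 had been tested, with 6 higher, 3 lower and a median log2 change of 0.06. Over all tested genes 19.0% were higher and 16.1% lower. The kinase genes Syk (25.5 to 76.2 FPKM, log2 1.58) and Lyn (17.0 to 34.6 FPKM, log2 1.03) rose most, per the authors' deposited table. Git2 (log2 0.51), Tns3 (0.51), Pxn, which encodes paxillin (0.41), and the kinase gene Fyn (0.36) rose by less. Lyn shares its locus in the table with another row, and 5 genes were higher without such rows. Fyn was not called with normal p-values. Ptk2b, which encodes the focal adhesion kinase relative PYK2, fell from 57.4 to 35.3 FPKM (log2 -0.70) and the adaptor gene Nedd9 from 67.8 to 49.0 FPKM (log2 -0.47) in the authors' deposited table. The other lower gene was Parvb, from 0.451 to 0.176 FPKM, a low-level parvin gene named here after its values were seen. Ptk2, the focal adhesion kinase gene itself, was listed at 0 and 0.00196 FPKM and was not tested, while Ilk, Parvg, Vcl and Lims1 were tested and not called.

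Membrane partners of integrins included 7 tested genes of 11 in the table, with 3 higher, 1 lower and a median log2 change of 0.22, beside 35.1% called over all tested genes. Cd44, the hyaluronan receptor, rose from 11.7 to 18.2 FPKM (log2 0.64), the tetraspanin gene Cd53 from 93.5 to 117 FPKM (log2 0.32) and Cd47, the integrin-associated protein, from 47.9 to 58.3 FPKM (log2 0.28) in the authors' deposited table. Cd81, another tetraspanin, fell from 136 to 105 FPKM (log2 -0.37) and shares its locus in the table with another row. Cd9, a tetraspanin partner of beta 1 integrins, was listed at 0 in both groups. When normal p-values were used, 1 of the 3 rises was called, beside 15.2% of all tested genes.

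**Figure D5:**
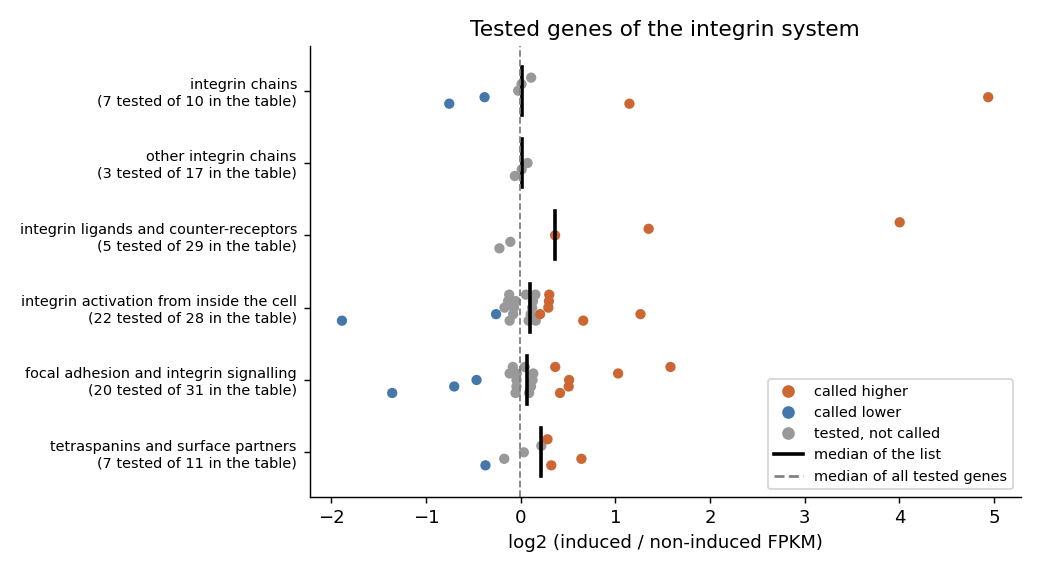
Log2 ratio of induced to non-induced FPKM for each tested gene of the 10 integrin chains and of 5 related gene lists, coloured by call, with the median of each list (black bar) and of all tested genes (dashed line). The medians of the lists lie between 0.01 and 0.36, and the chains themselves spread from -0.76 to 4.94 around a median of 0.01.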

How the data were processed

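RNA from 3 non-induced and 3 induced samples was made into stranded mRNA libraries, per the labels' protocols. The submitters' processing notes name Cuffdiff 2.1.1, Cufflinks, TopHat2 2.0.9, Trim Galore 0.2.8.1 and mouse build mm10, but neither the gene annotation nor a strand setting is stated there. The deposited table holds the authors' FPKM, 1 value for each group of a gene, their log2 fold change, p-value and q-value, and the test statistic, a score.

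No test per gene was added. Normal p-values were taken from the deposited statistic and adjusted (Benjamini-Hochberg) over tested rows that have one (29 have none). The step was tried on simulated normal statistics only, which does not show that the deposited statistic behaves in that way. The authors tested 10657 rows and left 13136 untested. Depth was estimated from the steps between the lowest products of FPKM and transcript length, over 2887 single-transcript genes of at least 1000 bases. Of these values 71.0% in non-induced and 66.3% in induced cells lay within 0.15 of a whole fragment, against 30% for evenly spread values, so fragment numbers are approximate. They assume the longest GENCODE M21 transcript, and positions come from that annotation.

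The chains, gene lists and rules were chosen with earlier results of these data known. Named are all 10 chains, each tested other integrin gene, up to 4 called genes per direction and list with at least 1 FPKM in a group, and well-known partners and ligands. Cyth1, Pxn, Fyn, Ilk, Parvg, Vcl and Lims1 were added after their values were seen, and 1 gene that the rule names is not reported here. Of 9 T cell markers 3 had been tested. Among these Cd28 and Lck were lower and 0 higher by Cuffdiff, also 0 higher at an unadjusted p under 0.05 and with normal p-values. Over all tested genes 16.1% were called lower and 19.0% higher. Alternatives were a q-value of 0.01, normal p-values, 1 FPKM, 1.5-fold, no shared loci, pseudocounts of 0.1 and 1, and centring. Python 3.11.15, pandas 2.3.3 and SciPy 1.17.1 were used.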

Additional observations from a re-analysis of the deposited data

How the results depend on the processing

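A pseudocount cannot reverse a direction, and the median used for centring was only -0.01, so neither setting tests the directions. With pseudocounts of 0.1 and 1 the log2 ratio of Itgb3, 1.89 without one, was 0.97 and 0.19. That of Itgam, 3.50 without one, was 1.15 and 0.18. The 7 tested chains kept their calls with normal p-values. With a pseudocount of 1 the log2 change of Itgb4 was 2.04. The number of chains called higher was 0 when rows that share a locus were left out, because Itga4 and Itgb4 are such rows, and the number called lower was 1 at 1.5-fold or more, Itga6. A q-value under 0.01 or a level of at least 1 FPKM moved no count by over 1.5 times. With normal p-values, integrin activation genes called higher numbered 2 and lower 1, and membrane partners called higher numbered 1. At 1.5-fold or more, activation genes numbered 2 higher and 1 lower, signalling genes 2 higher, and membrane partners 1 higher and 0 lower; the last count was also 0 without rows that share a locus. No paired analysis was possible because the table holds 1 value per group, and for the same reason no replicate could be left out. At about 120000000 fragments per group, chains below 0.3 FPKM had not been tested by the authors.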

Other observations

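Selplg, which encodes the P-selectin ligand PSGL-1 and was chosen after its values were seen, rose from 57.3 to 90.3 FPKM per the authors' deposited table (log2 0.66, Cuffdiff q = 0.000287). The endothelial selectin gene Sele was listed at 0 in both groups.

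Some genes that most cells express were listed near 0 in the authors' deposited table. Zyx, which encodes the focal adhesion protein zyxin, was listed at 0 in both groups and was not tested, and its row shares its locus with another row. Ppia, which encodes cyclophilin A, stood at 0.744 and 0.734 FPKM, beside 2213 and 2161 FPKM for the actin gene Actb. Ppia and Actb were not called, but Gapdh, also expressed by most cells, fell from 42.2 to 30.4 FPKM (log2 -0.47, Cuffdiff q = 0.000287).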
